A study of Homo sapiens with 6 samples.

Results

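The aminoacyl-tRNA synthetases, the enzymes that load amino acids onto transfer RNAs, were followed after silencing of Mic60 in PC3, a line of human prostate cancer cells derived from a metastasis in bone. Mic60 (gene IMMT) is a structural protein of the mitochondrial inner membrane and a subunit of the MICOS complex, which holds the cristae in shape. A list of 38 genes was read off the table of 57736 Ensembl genes by symbol: 20 cytosolic synthetases, 16 mitochondrial synthetases, which end in 2, and the scaffold genes AIMP1 and AIMP2. All 38 were found, and all 38 passed the filter on low counts, among 14653 genes that did. The libraries came from 3 samples labelled siCTRL and 3 labelled siMic60, which the genotype field of the labels calls Mic60 WT and Mic60 KO, with no other treatment, dose or time given. A single Mic60-directed group was sequenced, and nothing in the labels says whether the 3 libraries of a group came from separate cultures, so that p-values reflect how far these libraries vary among themselves, which may be technical in part. RNA was sequenced with a 3′ kit, which counts each polyadenylated transcript near its end, and levels are given as CPM, the counts of a gene scaled to a common library size with the TMM correction for library composition. A gene was called higher or lower at an adjusted p under 0.05 from edgeR's quasi-likelihood test across all genes tested.

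Human cells keep 2 sets of synthetases, both encoded in the nucleus. The cytosolic enzymes feed the ribosomes of the cytosol, and the mitochondrial enzymes are imported to charge the transfer RNAs made from mitochondrial DNA. GARS1 and KARS1 serve both compartments from a single gene each, EPRS1 carries the glutamyl and the prolyl enzyme in a single chain, and FARSA and FARSB encode the α and β subunits of the cytosolic phenylalanyl enzyme. In mitochondria no glutaminyl enzyme is needed, since EARS2 puts glutamate on the glutamine transfer RNA and an amidotransferase converts it. Several cytosolic enzymes sit with AIMP1 and AIMP2 in the multisynthetase complex. Many cytosolic synthetase genes are known targets of ATF4, the transcription factor of the integrated stress response, which binds C/EBP-ATF response elements, and WARS1 is known as an interferon-inducible gene.

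The promoters of the cytosolic genes are shown first, because the cytosolic and mitochondrial genes differ in a sequence feature there. RefSeq promoter windows of 300 bases (250 before the annotated start and 50 from it, build GRCh38.p14) were at hand for 32 of the 38 genes, in 44 windows. No window was held for LARS1, VARS1, YARS1, TARS3, AARS2 or VARS2. The letters TGATGNAA of the C/EBP-ATF element were searched on both strands. They occurred in 7 of the 16 cytosolic synthetase genes with a window (43.8%), in 1 of 14 mitochondrial synthetase genes and in 0 of the 2 scaffold genes, against 4.46% of all 27305 genes with a window. The 7 stretches, each written in the direction of the motif with the match in capitals and 10 bases on either side, were
AARS1: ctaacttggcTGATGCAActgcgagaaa
CARS1: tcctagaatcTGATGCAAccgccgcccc
GARS1: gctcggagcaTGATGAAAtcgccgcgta
IARS1: cgcacggaggTGATGCAAcgcgctgaaa
MARS1: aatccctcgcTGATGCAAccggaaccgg
NARS1: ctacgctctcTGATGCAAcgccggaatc
TARS1: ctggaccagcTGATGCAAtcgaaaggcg
These lie at chr16:70289676-70289703 (AARS1, plus strand as printed), chr11:3057408-3057435 (CARS1, plus), chr7:30594835-30594862 (GARS1, minus), chr9:92293693-92293720 (IARS1, plus), chr12:57488054-57488081 (MARS1, minus), chr18:57621805-57621832 (NARS1, minus) and chr5:33440957-33440984 (TARS1, minus). In 6 of the 7 the letters were TGATGCAA, in 6 they ran against the direction of the gene, and in 6 they were within 35 bases of the annotated start. For CARS1, GARS1 and TARS1, which have 2 windows each, only 1 window held the match, and the distance is from its start. By window, 7 of 21 cytosolic windows held the letters (33.3%), against 3.62% of all 35116 windows. The exception in distance was AARS1, whose match began 187 bases before the start. Among the cytosolic genes with a window, the match was present in 5 of the 8 called higher in siMic60 cells (AARS1, CARS1, GARS1, IARS1 and TARS1) and in 2 of the 8 not past the test (MARS1 and NARS1). The mitochondrial gene with a match was YARS2, with the letters TGATGGAA, and it was not past the test.

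A second motif, that of the interferon-stimulated response element (GAAA, any 2 bases and GAAA again, on either strand), was present in the window of 1 cytosolic gene, WARS1, and 1 mitochondrial gene, EARS2 (the same letters in both of its overlapping windows), against 4.38% of all genes with a window. The WARS1 match began 55 bases before the downstream of its 2 annotated starts. With the match in capitals, the stretches were
WARS1: tttcagaaggGAAACTGAAAgaaagagggg
EARS2: ttcagcttggGAAAGCGAAAgcgtggcagg
at chr14:100375383-100375412 (minus strand) and chr16:23557554-23557583 (plus strand). A match describes the letters in these windows, and binding was not measured.

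IMMT itself followed the labels, with 88.9, 91.2 and 90.4 CPM under siCTRL against 5.83, 7.34 and 8.53 CPM under siMic60. Total counts ran from 6644495 to 8779877 per library. Of 5 epithelial markers, all 5 were detected, of which 1 was called higher (KRT8, 1.53-fold) and 3 lower (KRT18, KRT19 and EPCAM). KRT19 carried most of their summed level, which was 1501 to 2081 CPM under siCTRL and 1081 to 1110 CPM under siMic60. Their part in the results was not tested. The androgen target KLK3 was at 0 counts in the 6 libraries, where 3 counts would be 0.346 to 0.460 CPM.

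Silencing of Mic60 was followed by higher mRNA of a set of cytosolic synthetases, and 1 of the 16 mitochondrial synthetases was called higher. The difference between the sets was not tested. Of the 20 cytosolic genes, 8 rose, led by WARS1, and 12 did not pass the test. Over all genes tested, 17.7% were called higher and 17.9% lower, and among the cytosolic synthetases the shares were 40.0% and 0%. The count of 0 lower is from edgeR, where 1 gene (QARS1) was lower at an unadjusted p under 0.05, and DESeq2 and limma-trend also called 0. The count of 8 was 5 without siCTRL replicate 2 or without siMic60 replicate 1. The median log2 fold change was 0.13 over the 20 cytosolic genes, −0.14 over the 16 mitochondrial genes and 0.0022 over all genes tested. The cytosolic median was 0.077 with library totals, and the mitochondrial median was −0.076 without siCTRL replicate 2. In 10 of the 20 cytosolic genes all siMic60 values exceeded all siCTRL values, and in 2 all were below, where 23.7% and 24.1% of all genes tested did the same (47.9% in either direction). In bulk RNA, a change in the share of cells that express a gene and a change in RNA per cell cannot be told apart.

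**Figure D1:**
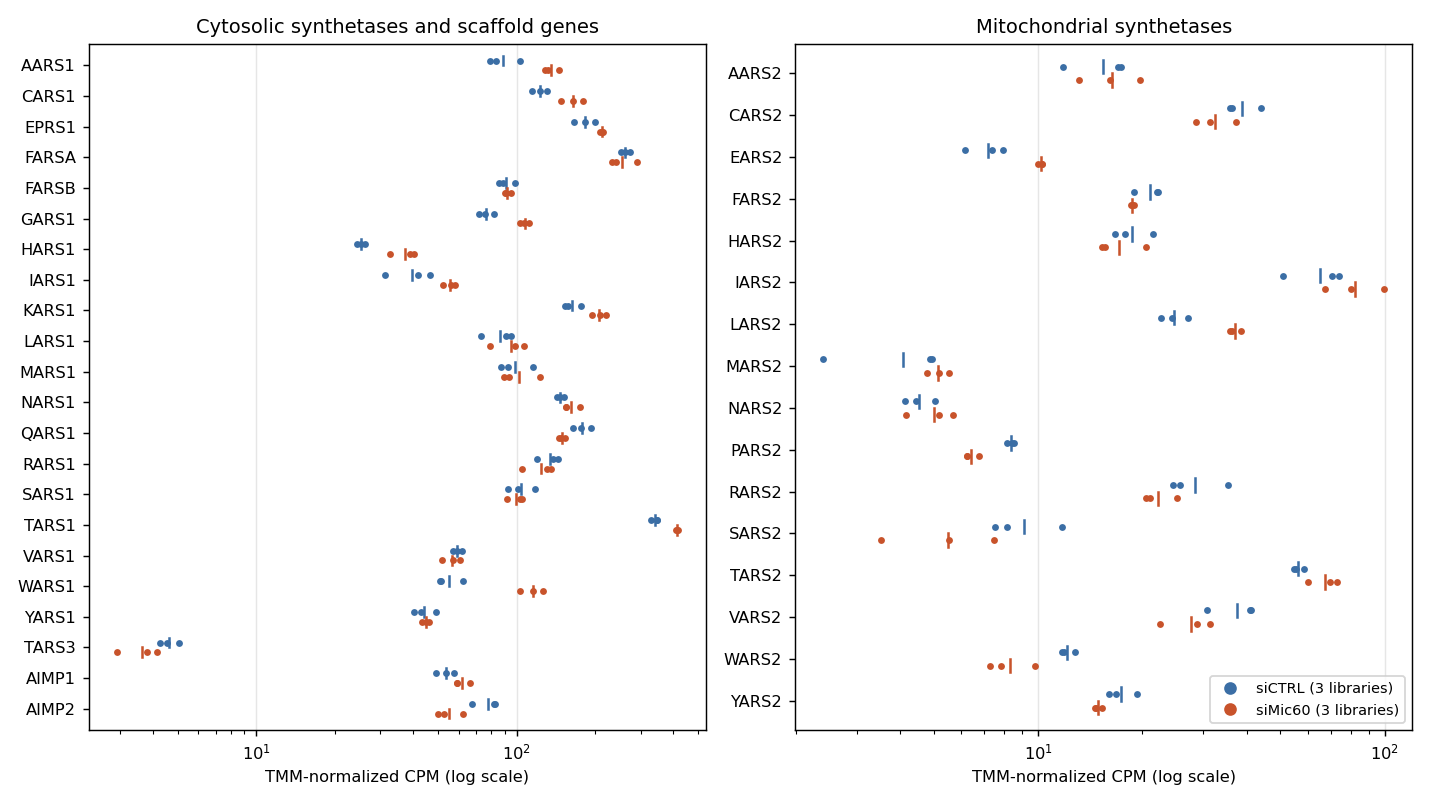
TMM-normalized CPM on a log axis for the 20 cytosolic synthetases and 2 scaffold genes (left) and the 16 mitochondrial synthetases (right), with 1 point per library, 3 siCTRL (blue) and 3 siMic60 (red), and a bar at each group mean. WARS1 shows the widest gap, from 50.7 to 62.4 CPM in siCTRL and from 103 to 127 CPM in siMic60, while most mitochondrial genes overlap.

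WARS1 (ENSG00000140105), the tryptophanyl enzyme, stood at 62.4, 50.7 and 51.3 CPM under siCTRL and at 127, 103 and 116 CPM under siMic60. The lowest siMic60 library was thus far above the highest siCTRL library. The rise was 2.10-fold (95% interval 1.73 to 2.55; log2 fold change 1.07, standard error 0.13, adjusted p = 1.95e-05). Of the 38 genes it had the smallest p-value, at rank 546 among all 14653 genes.

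Next in size was AARS1 (ENSG00000090861), the alanyl enzyme, with 103, 78.8 and 83.1 CPM in siCTRL and 132, 128 and 146 CPM in siMic60 libraries. It rose 1.53-fold (95% interval 1.26 to 1.85, adjusted p = 0.00191). HARS1 (ENSG00000170445), the histidyl enzyme, had 25.2, 24.4 and 26.3 CPM in siCTRL and 38.9, 40.5 and 32.5 CPM in siMic60 libraries. Its groups did not overlap, with a rise of 1.47-fold (1.203 to 1.81, adjusted p = 0.00537). In annotation, the last 300 bases of HARS1 overlap WDR55 on the opposite strand. WDR55 had 3774 counts over the 6 libraries against 1485 for HARS1 and did not pass the test (log2 fold change 0.13), and whether the counting used strand is not given in the sources used here.

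GARS1 (ENSG00000106105), the glycyl enzyme of cytosol and mitochondria, was at 82.2, 72.0 and 75.7 CPM in siCTRL and 112, 103 and 107 CPM in siMic60 libraries. The rise of 1.399-fold (1.18 to 1.66, adjusted p = 0.00430) was larger than the spread within either group. KARS1 (ENSG00000065427), the lysyl enzyme that likewise serves both compartments, went from 158, 154 and 177 CPM to 220, 209 and 195 CPM, or 1.28-fold (1.08 to 1.51, adjusted p = 0.0253). Thus both dual enzymes were among the genes that rose. The call of KARS1 was lost with library totals in place of TMM (adjusted p = 0.0533), without siCTRL replicate 2 (0.119) and without siMic60 replicate 1 (0.0764).

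IARS1 (ENSG00000196305), the isoleucyl enzyme, had 31.2, 46.7 and 41.7 CPM in siCTRL and 56.1, 58.1 and 52.1 CPM in siMic60 libraries. The first siCTRL library was low, and without it the rise went from a log2 fold change of 0.48 to 0.33 and the call was lost (adjusted p = 0.0680). It was also lost without siMic60 replicate 2 (adjusted p = 0.0607). CARS1 (ENSG00000110619), the cysteinyl enzyme, rose from 131, 115 and 123 CPM to 180, 148 and 165 CPM, or 1.33-fold (1.12 to 1.59, adjusted p = 0.0143). Its groups did not overlap, and its call was lost without siCTRL replicate 2 (adjusted p = 0.0802) and without siMic60 replicate 1 (0.0563).

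TARS1 (ENSG00000113407), the threonyl enzyme, had the highest CPM of the list, at 347, 345 and 329 in siCTRL and 413, 418 and 408 in siMic60 libraries. The libraries of a group lay close together and the groups were apart, yet the change was small, at 1.21-fold (1.04 to 1.41, adjusted p = 0.0457). This call was the least stable of the 8 and was lost in 9 of 13 alternative fits, with adjusted p-values of 0.0227 to 0.168 over the 13. Its relative TARS3 (ENSG00000185418), a second cytosolic threonyl enzyme, was the lowest cytosolic gene, at 5.03, 4.25 and 4.56 CPM in siCTRL and 2.91, 4.16 and 3.805 CPM in siMic60 libraries. All siMic60 values were below the siCTRL values, but with 19 to 42 counts per library the fold of 0.791 had a 95% interval of 0.518 to 1.21.

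The cytosolic genes that did not pass the test held narrow intervals. For 11 of the 12 the whole 95% interval lay within 1.5-fold either way, the exception being TARS3. Over all genes tested this held for 4087 of the 9449 that did not pass. The bound does not set these genes apart from those that rose. Among the cytosolic genes called higher, only WARS1 (2.10-fold) and AARS1 (1.53-fold) rose by more than 1.5-fold, and the interval of TARS1 also lay within the bound. The seryl, tyrosyl, valyl and methionyl enzymes were near a ratio of 1: SARS1 at 0.964-fold (0.801 to 1.16), YARS1 at 1.02-fold (0.843 to 1.23), VARS1 at 0.956-fold (0.801 to 1.14) and MARS1 at 1.04-fold (0.836 to 1.30). The phenylalanyl subunits also stayed together, FARSA at 0.976-fold (0.820 to 1.16) and FARSB at 1.01-fold (0.855 to 1.202). LARS1, the leucyl enzyme, had 1.10-fold (0.889 to 1.36), and RARS1, the arginyl enzyme, 0.924-fold (0.761 to 1.12). EPRS1 and the asparaginyl enzyme NARS1 had every siMic60 library above the siCTRL libraries without passing the test, at 1.16-fold (0.982 to 1.37, adjusted p = 0.155) and 1.10-fold (0.931 to 1.30, adjusted p = 0.379). QARS1 (ENSG00000172053), the glutaminyl enzyme, was the opposite case. It had 193, 164 and 177 CPM in siCTRL and 149, 154 and 146 CPM in siMic60 libraries, or 0.840-fold (0.711 to 0.992, adjusted p = 0.0968). With library totals in place of TMM it passed as lower (adjusted p = 0.0387). In annotation the last 300 bases of MARS1 overlap the stress gene DDIT3 on the opposite strand, which rose (log2 fold change 0.97, adjusted p = 1.15e-04) and had 1523 counts over the 6 libraries against 4814 for MARS1.

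**Figure D2:**
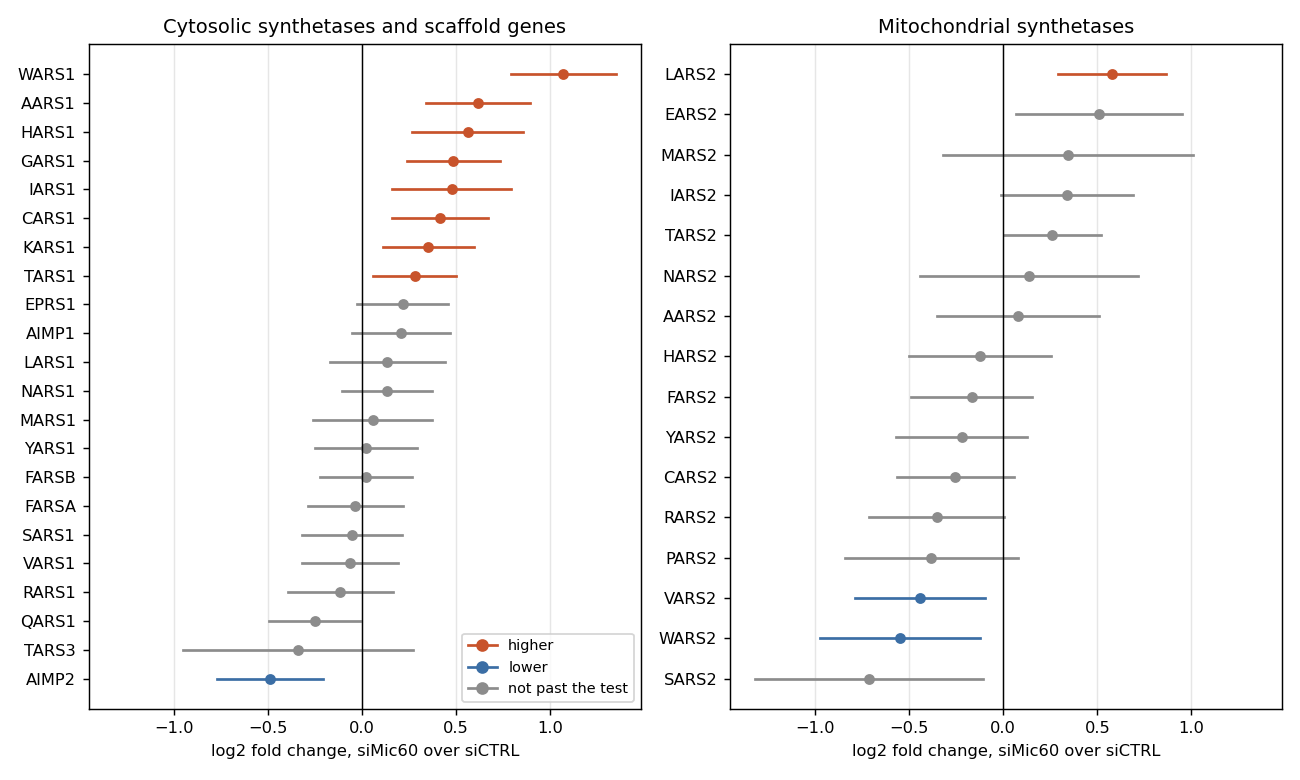
Log2 fold change of siMic60 over siCTRL with its 95% interval for each cytosolic synthetase and scaffold gene (left) and mitochondrial synthetase (right), 3 libraries per group, coloured by the call at an adjusted p under 0.05. On the left 8 genes are higher and AIMP2 is lower, and on the right LARS2 is higher and VARS2 and WARS2 are lower.

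The cytosolic genes were then divided by prior knowledge into 13 that are often described as ATF4-linked and 7 others. The lists were drawn up with earlier results of these data known, so the division may not be independent of the values below. Of the 13, 6 rose (AARS1, CARS1, GARS1, IARS1, TARS1 and WARS1; 46.2%, against 17.7% of all genes tested) and 0 fell by edgeR (0 at an unadjusted p under 0.05, and 0 by DESeq2 and limma-trend), with a median log2 fold change of 0.22. The 6 that rose became 4 to 5 with 1 library left out. Of the 7 others, 2 rose (HARS1 and KARS1; 28.6%) and 0 fell by edgeR (1 at an unadjusted p under 0.05, and 0 by DESeq2 and limma-trend), with a median of −0.035. With library totals 1 of the 7 was higher and 1 lower, and 1 was higher without siCTRL replicate 2 or siMic60 replicate 1. Summed over the 13 genes, mRNA went from 1445 ± 33.2 to 1764 ± 40.5 CPM, and over the 7 from 857 ± 20.9 to 870 ± 51.8 CPM (SD, n = 3 each). The difference between these subgroups was not tested. C/EBP-ATF matches were in 7 of the 10 ATF4-linked genes with a window and in 0 of the 6 others. What is known of ATF4 targets may rest in part on such elements, so this count is not independent of the division.

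Among the mitochondrial synthetases few genes passed the test, in both directions. Of 16 genes, 1 rose (6.25%, against 17.7% of all genes tested), 2 fell (12.5%, against 17.9%) and 13 did not pass. The 2 that fell became 0 without siCTRL replicate 1 or 3 or siMic60 replicate 1 or 3 and 1 without siCTRL replicate 2, and the 1 that rose became 2 without siMic60 replicate 2. Their counts were lower and their errors wider, with a median standard error of the log2 fold change of 0.17 against 0.12 for the cytosolic genes. For 6 of the 13 that did not pass, the 95% interval lay within 1.5-fold either way, against 4087 of 9449 over all genes tested. Over the 16 genes together mRNA was 369 ± 9.16 CPM under siCTRL and 376 ± 13.7 CPM under siMic60, while over the 20 cytosolic genes it went from 2302 ± 28.7 to 2633 ± 91.8 CPM (SD, n = 3 each). As a share of both sums, the mitochondrial genes made up 14.0%, 13.7% and 13.7% under siCTRL and 11.8%, 12.5% and 13.2% under siMic60, with no overlap.

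LARS2 (ENSG00000011376), the mitochondrial leucyl enzyme, was the mitochondrial gene that rose. It had 27.1, 22.6 and 24.3 CPM in siCTRL and 38.6, 36.4 and 35.7 CPM in siMic60 libraries, or 1.49-fold (95% interval 1.22 to 1.82, adjusted p = 0.00367). WARS2 (ENSG00000116874), the mitochondrial tryptophanyl enzyme, fell, from 11.9, 11.8 and 12.8 CPM to 7.82, 9.79 and 7.26 CPM. Its groups did not overlap, at 0.683-fold (0.509 to 0.918, adjusted p = 0.0438), on 51 to 104 counts per library. The call was lost in 8 of 13 alternative fits, by DESeq2 among them (adjusted p = 0.0702), with adjusted p-values of 0.027 to 0.141 over the 13. VARS2 (ENSG00000137411), the mitochondrial valyl enzyme, had 41.1, 30.6 and 40.9 CPM in siCTRL and 22.5, 31.3 and 28.8 CPM in siMic60 libraries. Its groups overlapped, since the second siCTRL library was below the second siMic60 library. It was called lower at 0.736-fold (0.580 to 0.935, adjusted p = 0.0448), a call lost in 6 of 13 alternative fits, with adjusted p-values of 0.0197 to 0.182.

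Over the 16 mitochondrial genes, 3 had all siMic60 values higher and 4 had them all lower, which is near the shares of all genes tested without overlap (23.7% and 24.1%). Of these, 2 were higher without passing the test. EARS2, the glutamyl enzyme, had 7.91, 7.38 and 6.16 CPM in siCTRL and 10.27, 10.28 and 10.03 CPM in siMic60 libraries (1.42-fold, 1.05 to 1.93, adjusted p = 0.0685). TARS2, the threonyl enzyme, had 1.198-fold (1.001 to 1.43, adjusted p = 0.110). In 3 genes every siMic60 library was lower, again without a call. SARS2, the seryl enzyme, had 11.7, 7.505 and 8.14 CPM in siCTRL and 3.53, 7.47 and 5.53 CPM in siMic60 libraries, so that the groups were barely apart (0.610-fold, 0.401 to 0.928, adjusted p = 0.0632), and 4 of 13 alternative fits called it lower. PARS2, the prolyl enzyme, was tight within the groups, at 8.39, 8.51 and 8.14 CPM against 6.75, 6.24 and 6.23 CPM, with a fold of 0.767 (0.557 to 1.05). YARS2, the tyrosyl enzyme, had 0.858-fold (0.674 to 1.09).

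The remaining 8 mitochondrial genes overlapped between the groups. IARS2, the isoleucyl enzyme, spread from 50.9 to 74.1 CPM in siCTRL and from 67.2 to 99.8 CPM in siMic60, at 1.26-fold (0.991 to 1.61). It passed as higher when no minimum count was set (adjusted p = 0.0490) and without siMic60 replicate 2 (0.0488). RARS2, for arginine, and CARS2, for cysteine, had 0.783-fold (0.611 to 1.003) and 0.838-fold (0.676 to 1.04). FARS2, for phenylalanine, had 0.891-fold (0.713 to 1.11), HARS2, for histidine, 0.918-fold (0.707 to 1.19), and AARS2, for alanine, 1.06-fold (0.785 to 1.43). The lowest genes were NARS2 and MARS2, for asparagine and methionine, with 33 to 45 and 20 to 45 counts per library. Their 95% intervals, 0.737 to 1.64 and 0.800 to 2.01, both take in a rise of 1.5-fold. In annotation the last 300 bases of HARS2 overlap ZMAT2 on the same strand, which had 12302 counts over the 6 libraries against 858 for HARS2.

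Each cytosolic gene was next set against its mitochondrial partner within a library, in 17 pairs, as the log2 ratio of their CPM, which depends little on how libraries are scaled. The mean change was above 0 in 14 of the 17 pairs, with a median of 0.22. In 7 pairs the siMic60 values all exceeded the siCTRL values, while 0 pairs had the reverse. Groups without overlap were common among single genes, at 23.7% higher and 24.1% lower of all genes tested. The share among ratios of other gene pairs was not computed, so these counts have no background of their own. Of the 14, some changes were smaller than the pooled SD of the pair between libraries. These were NARS1/NARS2 (0.0089), TARS1/TARS2 (0.025), FARSA/FARS2 (0.12), IARS1/IARS2 (0.16) and RARS1/RARS2 (0.22). Of the 14, 4 fell below 0 when 1 library was left out (IARS1/IARS2 at −0.015, NARS1/NARS2 at −0.083, RARS1/RARS2 at −0.023 and TARS1/TARS2 at −0.063 at the lowest). MARS1/MARS2, below 0, turned to 0.11 without siCTRL replicate 1. The pairs are not independent, since EPRS1 and FARS2 each enter more than once. A two-sided exact permutation test of 3 against 3 libraries cannot give a p under 0.1, which was the lowest found (0.243 after Benjamini-Hochberg adjustment over the 17 pairs), so these ratios are descriptions.

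The largest change was that of WARS1 to WARS2. Its log2 ratio was 2.35, 2.06 and 1.96 under siCTRL and 3.93, 3.33 and 3.91 under siMic60, a change of 1.60 on the log2 scale, or 3.03-fold. The tryptophanyl pair thus went apart in opposite directions. For HARS1 to HARS2 the log2 ratio was 0.58, 0.18 and 0.54 against 1.32, 0.97 and 1.04, a change of 0.68. These neighbours are read in opposite directions from starts that enclose 84 bases, at chr5:140691371-140691454 of GRCh38.p14. The stretch, shown because both genes share it while their mRNAs differed in change, reads on the plus strand
HARS1-HARS2: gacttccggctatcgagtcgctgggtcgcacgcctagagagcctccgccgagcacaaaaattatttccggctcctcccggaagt
The RefSeq windows of the pair overlap by 184 bases, and neither holds either motif. CARS1 to CARS2 changed by 0.67 (1.57, 1.67 and 1.75 against 2.64, 1.97 and 2.38), and SARS1 to SARS2 by 0.66 (3.27, 3.54 and 3.55 against 4.71, 3.70 and 3.94). In the seryl pair the cytosolic gene was at 0.964-fold, and the change of the ratio was 0.37 without siMic60 replicate 1. The leucyl pair had the largest change in the other direction, with a log2 ratio of 1.41, 2.05 and 1.88 in siCTRL and 1.46, 1.11 and 1.45 in siMic60 libraries, and the groups overlapped.

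**Figure D3:**
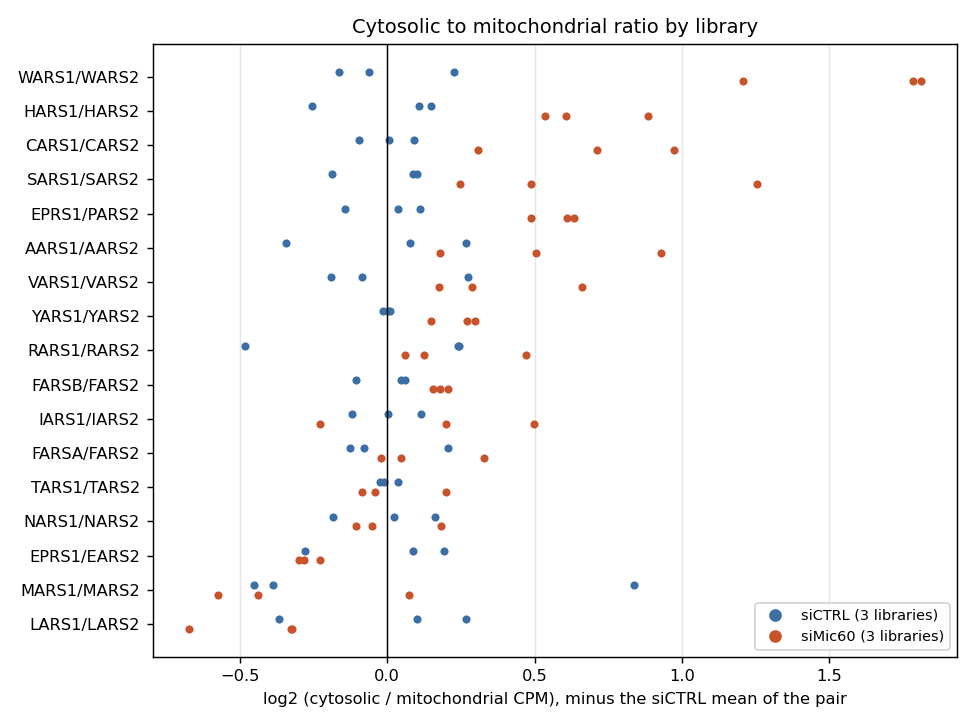
Log2 ratio of cytosolic to mitochondrial CPM in each library, minus the siCTRL mean of the pair, for 17 pairs ordered by the change, with 3 siCTRL (blue) and 3 siMic60 (red) points per pair. The red points of WARS1/WARS2 lie far to the right of the blue ones, and those of LARS1/LARS2, at the foot, overlap with them.

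In the multisynthetase complex, of 9 listed members, 2 rose (IARS1 and KARS1; 22.2%), 1 fell (AIMP2; 11.1%) and 6 did not pass, which is near the 17.7% and 17.9% of all genes tested. The 2 that rose became 1 without siCTRL replicate 1 or 2 or siMic60 replicate 1 or 2. The median log2 fold change was 0.13, and the summed level was 1013 ± 20.5 CPM under siCTRL and 1063 ± 20.4 CPM under siMic60 (SD, n = 3 each). AIMP2 (ENSG00000106305), a scaffold protein of the complex, had 82.1, 82.4 and 67.6 CPM in siCTRL and 52.7, 62.5 and 50.04 CPM in siMic60 libraries. It fell to 0.713-fold (95% interval 0.586 to 0.867, adjusted p = 0.00979) and kept its call in all 13 alternative fits. AIMP1 (ENSG00000164022), the other scaffold, went the other way without passing the test, from 53.7, 57.3 and 49.2 CPM to 59.0, 66.3 and 59.3 CPM (1.15-fold, 0.963 to 1.38, adjusted p = 0.207). In annotation the last 300 bases of AIMP2 overlap EIF2AK1 on the opposite strand, the gene of a kinase of the stress response. EIF2AK1 had 7184 counts over the 6 libraries against 3181 for AIMP2 and a log2 fold change of −0.22 (adjusted p = 0.164), so that reads of the pair could be mixed where strand was not used.

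Other genes of transfer RNA supply and of the ATF4 response were counted for comparison. Of 28 ATF4-linked genes other than synthetases, ATF4 itself included, 15 rose (53.6%, against 17.7% of all genes tested). In the same list 1, PSPH, fell and 12 did not pass the test, and the median log2 fold change was 0.38. The called genes with the smallest adjusted p were SLC7A5, a transporter of large neutral amino acids, at 3.74-fold, SESN2, a stress-induced inhibitor of growth signaling, at 2.06-fold, and ATF5, a relative of ATF4, at 2.11-fold. WARS1 was at 2.10-fold, and the other cytosolic synthetases that rose had smaller folds. The windows of WARS1 held the motif of the interferon-stimulated response element and no C/EBP-ATF match. What raised WARS1 was not tested. Of 20 other genes that handle transfer RNA, most of them cytosolic (the list of cytosolic tRNA handling), 5 rose and 2 fell. This is 35% called, against 35.5% of all genes tested, with a median of 0.043. Among those that rose, PTRH2, a peptidyl-tRNA hydrolase, was at 1.46-fold, RPP30, a subunit of RNase P, at 1.37-fold and TSEN54, a subunit of the splicing endonuclease, at 1.33-fold.

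Of 16 genes that mature mitochondrial transfer RNA, 4 rose (25%) and 3 fell (18.75%), against 17.7% and 17.9% of all genes tested. HSD17B10, a subunit of mitochondrial RNase P, rose from 90.9 ± 6.79 to 143 ± 12.9 CPM (SD, n = 3 each; 1.57-fold), whereas PRORP, the nuclease subunit of the same enzyme, fell from 34.5 ± 3.10 to 20.9 ± 3.73 CPM (0.608-fold, adjusted p = 0.00245). PUS1, which makes pseudouridine in transfer RNA, rose 1.57-fold. Of 9 mitochondrial translation factors, 1 rose (GFM2, which recycles ribosomes, 1.57-fold) and 1 fell (MTIF2, an initiation factor, 0.791-fold), or 11.1% each way.

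**Figure D4:**
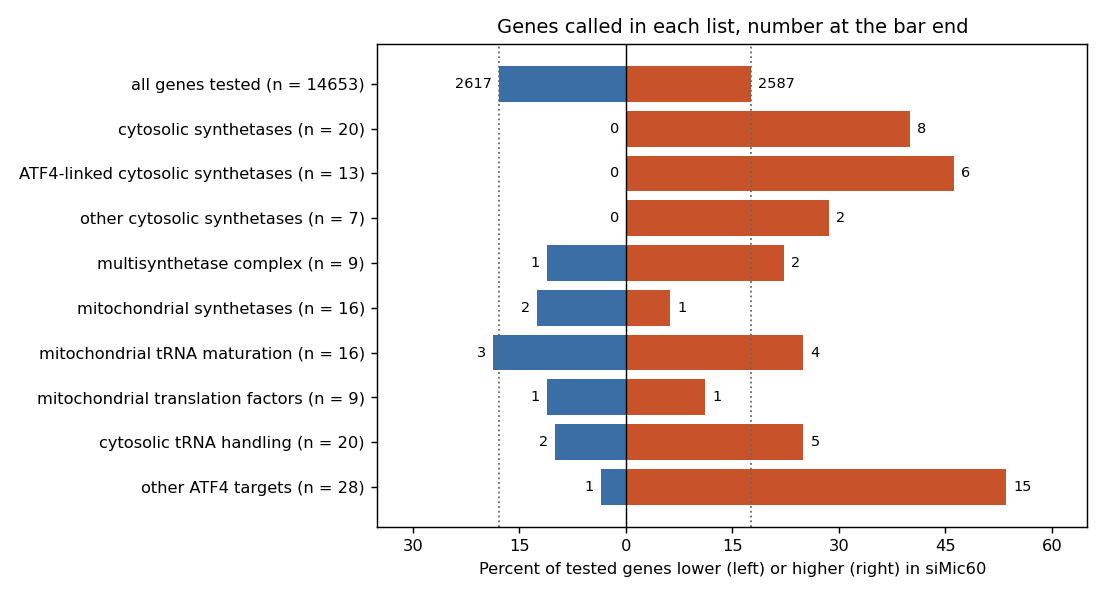
Percent of the tested genes in each list called higher (red, right) or lower (blue, left) in siMic60 against siCTRL cells, with the number of genes at the bar end, and dotted lines at 17.7% and 17.9%, the shares over all 14653 genes. The cytosolic synthetases (8 of 20) and the other ATF4 targets (15 of 28) extend past the line on the right, and the mitochondrial synthetases (1 of 16) do not reach it.

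The calls differed in how far they depended on single libraries and settings. Of the 12 called members, 6 kept their call and direction in all 13 alternative fits: WARS1, AARS1, GARS1, HARS1, LARS2 and AIMP2. The other 6 lost it in at least 1 fit, and none changed sign. Of the 26 members not called, 23 were called in no fit, and QARS1, IARS2 and SARS2 were called in at least 1.

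**Figure D5:**
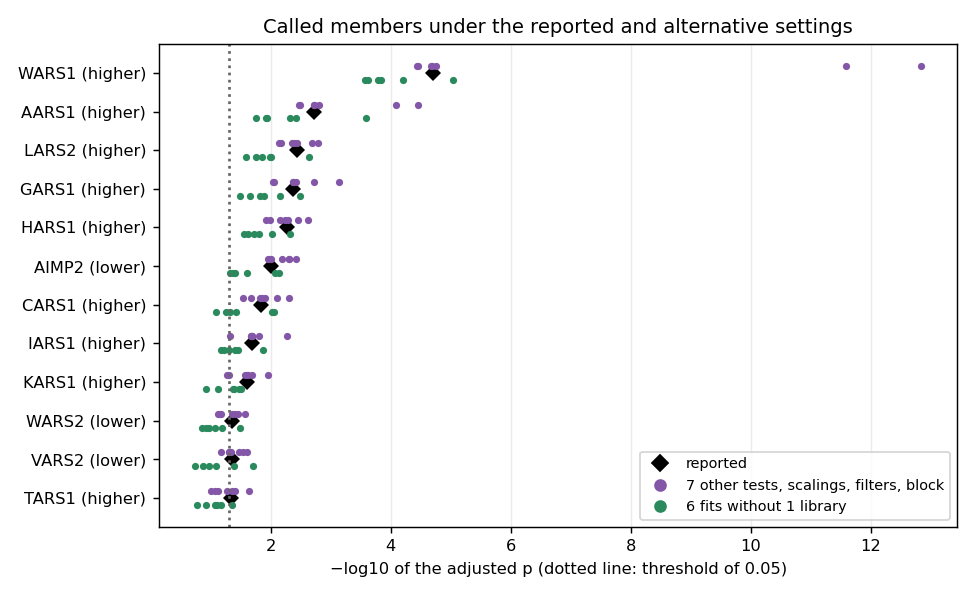
−log10 of the adjusted p of the 12 called members under the reported fit (diamonds), 7 other tests, scalings, filters and the replicate block (purple) and 6 fits that each leave out 1 library (green), with the threshold of 0.05 as a dotted line. Points of WARS1 all lie to the right of the line, and those of TARS1, VARS2 and WARS2 fall on both sides.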

How the data were processed

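RNA was sequenced from 6 PC3 libraries, 3 per group. The authors deposited raw counts, 1 column per library, each a whole number. RSEM 1.2.3, DESeq2 and hg19 (GRCh37) are credited to the submitters' processing notes. RSEM estimates counts, so the values may be rounded estimates. For the aligner, annotation, filters and strand, nothing is given in the sources used here. Of 57736 Ensembl rows, 52301 were given a symbol from a table of gene names or from GENCODE release 29, which also gave overlaps between genes. Since its build differs, positions are printed for RefSeq promoters (GRCh38.p14) only.

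The test was edgeR 4.0.16 in R 4.3.3: at least 10 counts in at least 3 libraries, TMM, quasi-likelihood test, Benjamini-Hochberg adjustment over all genes tested. Pair ratios added 0.5 CPM to each value. The edgeR step was tested on simulated data. Alternatives were DESeq2 1.42.0, limma-trend (limma 3.58.1, prior count of 2), DESeq2 size factors, library totals, dropping the minimum or raising it to 50 counts, blocking on replicate number, and leaving out each library. The members and lists were chosen with earlier results of these data known. Named are all members, IMMT, the 3 called genes with the smallest adjusted p in each other list, and the 4 pairs with the largest change among those without overlap. PSPH, DDIT3, WDR55, ZMAT2, EIF2AK1, the called epithelial markers and the pairs beyond these 4 were named after their values were seen. A list of markers of other cell types is not reported here.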

Additional observations from a re-analysis of the deposited data

How the results depend on the processing

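Each result was recomputed under 13 alternatives, 6 of which left out 1 library. The 9 members called higher and 3 called lower kept their direction in all 13, and 6 of these 12 kept their call in all 13. TARS1 (lost in 9), WARS2 (8) and VARS2 (6) depended most on the setting. Counts of mitochondrial synthetases called lower were 1 by DESeq2, 1 by limma-trend and 0 with the replicate block, but 3 with library totals and 3 with the minimum of 50 counts, against 2, and 2 were called higher with no minimum count, against 1. With library totals, which moved the median of all genes to −0.055, 6 cytosolic synthetases were higher, against 8, and 1 was lower, the other cytosolic group had 1 higher and 1 lower, the multisynthetase complex 1 higher and 2 lower, the translation factors 2 lower and the other ATF4 targets 2 lower, and the log2 fold changes of FARSB (−0.035) and YARS1 (−0.031) turned negative. The other ATF4 targets also had 2 lower by limma-trend and with no minimum count, where cytosolic tRNA handling had 1 lower, and the translation factors had 2 lower with the minimum of 50 counts.

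Same-numbered libraries did not deviate together (correlations of −0.115, −0.025 and 0.024), where libraries of unlike number had −0.130 to 0.131. With 3 libraries per group, these values cannot exclude that equal numbers mark a pairing. With the replicate block, 7 cytosolic synthetases were higher, and 0 translation factors, 1 gene of cytosolic tRNA handling and 2 other ATF4 targets were lower, while 1 pair had a lower ratio in every numbered comparison. Not every library correlated best with its own number.

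With 1 library left out, 5 to 7 cytosolic synthetases were higher (5 without siCTRL replicate 2), 1 to 2 mitochondrial ones were higher (2 without siMic60 replicate 2) and 0 to 3 lower (0 without siCTRL replicate 1, 3 without siMic60 replicate 2). The multisynthetase complex had 1 to 2 higher, the ATF4-linked cytosolic group 4 to 5 and the other cytosolic group 1 to 2. Translation factors had 0 to 2 higher and 0 to 1 lower, cytosolic tRNA handling 3 to 6 higher and 0 to 1 lower, the other ATF4 targets 0 to 1 lower, and 0 to 2 pairs had a lower ratio without overlap. Log2 fold changes near 0 changed sign, with ranges of −0.13 to 0.029 for FARSA, −0.032 to 0.080 for FARSB, −0.089 to 0.18 for MARS1, −0.19 to 0.0049 for RARS1, −0.14 to 0.044 for SARS1, −0.045 to 0.10 for YARS1 and −0.085 to 0.22 for AARS2. Pairs that changed sign are given with their ratios. The causes were not tested. At 19 to 45 counts per library, TARS3, MARS2 and NARS2 had wide intervals.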
